A study of Mus musculus with 24 samples.

Results

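Intergenic distal H3K9ac regions are stretches of chromatin carrying histone H3 acetylated at lysine 9 (H3K9ac) that lie away from protein-coding genes. They were read from chromatin immunoprecipitation and sequencing (ChIP-seq) of day 5 embryoid bodies, the aggregates that mouse embryonic stem cells form as they start to differentiate. Overlapping peaks (1 bp or more) of the 8 H3K9ac lists were joined into regions. A region was kept when it was autosomal, had a peak in at least 4 of the 8 lists and lay more than 5 kb from the span of every protein-coding gene. This gave 1141 regions, 7.59% of the 15031 autosomal regions found in at least 4 lists and part of 26034 merged regions in all. Members were thus chosen by presence in the lists, and counts of lists per member are given as a description.

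The study set Gcn5-/- embryoid bodies (null, clones 4_C2 and 6_C4) against Gcn5fx/fx embryoid bodies (fx, clones 4_1 and 6_1), which carry the floxed allele in homozygous form, to ask how H3K9ac is distributed after Gcn5 loss early in differentiation. Kat2a is the gene of Gcn5, an enzyme that places acetyl groups on histones, this residue included. All cells were C57BL/6, all were at day 5, and each line is 1 clone with 2 replicate libraries. Clones 4_C2 and 4_1 form isolate pair 4, and clones 6_C4 and 6_1 form isolate pair 6.

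H3K9ac marks the start sites of active genes of several kinds and also active enhancers, the distal elements that raise transcription of genes at a distance. Away from protein-coding genes it can mark promoters of long non-coding RNAs (lncRNAs), host transcripts of microRNAs (miRNAs), and genes read by RNA polymerase III such as those of transfer RNAs (tRNAs). In early embryonic cells, distal acetylation is known around genes that hold pluripotency or that set the first lineages.

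The lists held between 12041 and 20809 peaks covering 21.8 to 44.3 Mb, with 17849 to 20809 peaks in isolate pair 6 and 12041 to 15315 in isolate pair 4. The peak list of replicate 2 of null clone 4_C2 was the shortest. Peaks at the ends of pluripotency and epiblast markers were present in at least 6 lists for each of the 6 genes (Pou5f1, Sox2, Nanog, Otx2, Fgf5 and Dnmt3b), and in all 8 for 3 of them. Of the neuroectoderm markers, Nes had one in 8 lists, Sox1 in 7 and Pax6 in 1. The mesoderm markers had one in 4 to 6 lists, the endoderm markers in 1 to 5 and the fibroblast markers in 0 to 6, with Postn at 0. The blood marker Ptprc was at 0 and Cd34 had 1. Kat2a had a peak at an end in 4 null and 4 fx libraries, which does not check the deletion.

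Members held 19 of the 261 annotated miRNA genes that lie more than 5 kb from protein-coding genes (7.28%), and 50 members lay within 10000 bp of 1 of 61 annotated miRNA genes. Mature miRNAs of 4 of these loci are shown, from RefSeq on GRCm38.p6, because the results below return to them. The capitals mark the seed, bases 2 to 8 from the 5′ end, which pairs with target RNAs. The first 6 come from the Mir17 cluster, the next 3 from the let-7 cluster nearest to Zfp169, the next from the Mir9 genes and the last 3 from the Mir200 cluster.
mmu-miR-17-5p: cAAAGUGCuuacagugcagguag
mmu-miR-20a-5p: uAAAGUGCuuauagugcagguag
mmu-miR-18a-5p: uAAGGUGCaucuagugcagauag
mmu-miR-19a-3p: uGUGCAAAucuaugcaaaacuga
mmu-miR-19b-3p: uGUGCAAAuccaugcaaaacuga
mmu-miR-92a-3p: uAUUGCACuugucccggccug
mmu-let-7a-5p: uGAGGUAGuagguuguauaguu
mmu-let-7d-5p: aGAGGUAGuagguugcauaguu
mmu-let-7f-5p: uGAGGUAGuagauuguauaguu
mmu-miR-9-5p: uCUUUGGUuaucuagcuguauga
mmu-miR-200a-3p: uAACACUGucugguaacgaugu
mmu-miR-200b-3p: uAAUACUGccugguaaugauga
mmu-miR-429-3p: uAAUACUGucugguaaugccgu
miR-17 and miR-20a share the seed AAAGUGC, the miR-19 pair shares GUGCAAA and the 3 let-7 miRNAs share GAGGUAG. miR-200b and miR-429 share AAUACUG, from which the seed of miR-200a, AACACUG, differs.

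Promoter windows of lncRNAs whose annotated start lies inside a member are shown next, to set members present in every list beside members seen mainly in isolate pair 6. Each window runs from 250 bases before to 50 bases after the start, on the strand of the gene, with each CG dinucleotide in capitals. The windows of Chaserr (chr7:73558346-73558645, minus strand) and Dleu2 (chr14:61682324-61682623, minus strand) lie in members with a peak in all 8 lists. Those of Platr22 (chr1:136695961-136696260, plus strand) and Lncenc1 (chr13:97434720-97435019, plus strand) lie in members found in the 4 lists of isolate pair 6 and in 1 list of isolate pair 4.
Chaserr: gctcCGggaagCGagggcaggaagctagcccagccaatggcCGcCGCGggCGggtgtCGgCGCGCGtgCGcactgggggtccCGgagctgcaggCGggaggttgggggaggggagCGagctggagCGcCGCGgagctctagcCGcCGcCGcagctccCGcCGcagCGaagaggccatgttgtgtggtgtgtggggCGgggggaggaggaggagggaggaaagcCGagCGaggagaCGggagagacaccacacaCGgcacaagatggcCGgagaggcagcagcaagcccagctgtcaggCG
Dleu2: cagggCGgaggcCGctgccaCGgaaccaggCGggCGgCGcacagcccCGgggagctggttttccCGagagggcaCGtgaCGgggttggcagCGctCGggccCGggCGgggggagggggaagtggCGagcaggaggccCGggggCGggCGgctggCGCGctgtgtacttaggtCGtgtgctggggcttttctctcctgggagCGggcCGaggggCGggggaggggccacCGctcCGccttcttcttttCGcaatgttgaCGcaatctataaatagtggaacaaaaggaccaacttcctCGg
Platr22: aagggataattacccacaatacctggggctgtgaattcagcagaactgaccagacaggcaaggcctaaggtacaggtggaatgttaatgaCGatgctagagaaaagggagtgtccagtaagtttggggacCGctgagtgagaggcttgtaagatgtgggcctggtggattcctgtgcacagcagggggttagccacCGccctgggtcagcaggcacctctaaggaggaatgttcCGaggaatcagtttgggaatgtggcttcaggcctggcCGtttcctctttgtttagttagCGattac
Lncenc1: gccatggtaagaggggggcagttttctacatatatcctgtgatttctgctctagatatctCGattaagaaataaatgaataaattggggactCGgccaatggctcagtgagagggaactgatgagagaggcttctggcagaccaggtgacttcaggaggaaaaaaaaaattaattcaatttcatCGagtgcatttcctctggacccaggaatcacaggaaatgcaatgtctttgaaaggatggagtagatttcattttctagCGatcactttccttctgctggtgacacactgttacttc
The Chaserr window holds 30 CG dinucleotides and that of Dleu2 29, with an observed over expected ratio of 0.826 and 0.856. Platr22 has 6 and Lncenc1 4, with ratios of 0.315 and 0.304. Other windows, not shown, were less clearly apart. Those of the lncRNAs Snhg17 and Malat1, in members of all 8 lists, had 14 and 10, with ratios of 0.845 and 0.604. Those of Platr10 and Sox1ot, in members of 6 lists, had 1 and 20, with ratios of 0.0604 and 1.08.

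The 215 lncRNA genes with a start inside a member had a median CG ratio of 0.572, against 0.204 for 5151 lncRNA genes whose distal starts lay outside members and 0.595 for 16456 autosomal protein-coding genes. The ratio was above 0.6 for 44.7% of lncRNA starts in members, 3.88% of those outside and 49.7% of protein-coding starts. Starts in members present in all 8 lists had a median of 0.649 (113 genes), and those in members present in 4 to 7 lists 0.38 (102 genes). The GC box GGGCGG, searched on both strands, was in 47% of the windows in members and 7.12% of those outside. It was in 47.3% of protein-coding windows and 35.9% of all 27025 windows. The E-box CACGTG, which reads the same on both strands, was in 13% of windows in members and 5.32% outside. The E-box was in 7.96% of protein-coding windows and 7.24% of all windows. It was in 7.08% of windows of members in all 8 lists and in 19.6% of those in 4 to 7 lists, and among the windows shown it lies in that of Dleu2. A match describes letters in the window and not a bound site.

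Of the 1141 members, 592 (51.9%) overlapped no annotated gene of any kind. Another 182 (16%) held an annotated lncRNA start site and 195 (17.1%) lay in the span of a lncRNA without its start. A tRNA gene lay in 73 members (6.4%), and of the rest 9 held a miRNA gene, 16 another small RNA gene and 74 a pseudogene or other RNA gene. A member with several kinds was counted once, small RNA genes before lncRNAs. Read from the genes, 123 of 269 distal tRNA genes (45.7%) lay in a member, against 255 of 6518 distal lncRNA start sites (3.91%) and 18 of 1331 other small RNA genes (1.35%). Members lay a median of 19816 bp from the nearest protein-coding gene (quartiles 10099 and 42831 bp), with 86 more than 100 kb away. The farthest, chr1:113961582-113964539, lay 1720198 bp from Cntnap5a. It covered 0 and 0 bp in null clone 4_C2, 2523 and 2178 bp in null clone 6_C4, 1150 and 0 bp in fx clone 4_1 and 2821 and 2777 bp in fx clone 6_1, so that it was seen in every library of isolate pair 6 and in 1 of isolate pair 4.

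How often a member was called differed with its annotation. A peak in all 8 lists was found for 339 members (29.7%), while 281 (24.6%) were in exactly 4. Members at other small RNA genes were in all 8 lists in 75% of cases, at tRNA genes in 52.1% and at lncRNA starts in 46.7%. The share was 26.2% in lncRNA spans and 20.6% where no gene was annotated. By comparison 78.2% of 10945 regions within 1000 bp of an end of a protein-coding gene (gene-end regions) and 38.5% of 2600 regions inside genes away from their ends were in all 8 lists. At the distance limit, the members just inside lay 5004 bp from Abt1, 5023 bp from Irx2 and 5026 bp from Parp16, in 6, 4 and 4 lists. The regions just outside lay 4964 bp from Gm40469, 4946 bp from Mnx1 and 4943 bp from Zfp213, in 6, 7 and 8 lists.

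**Figure D1:**
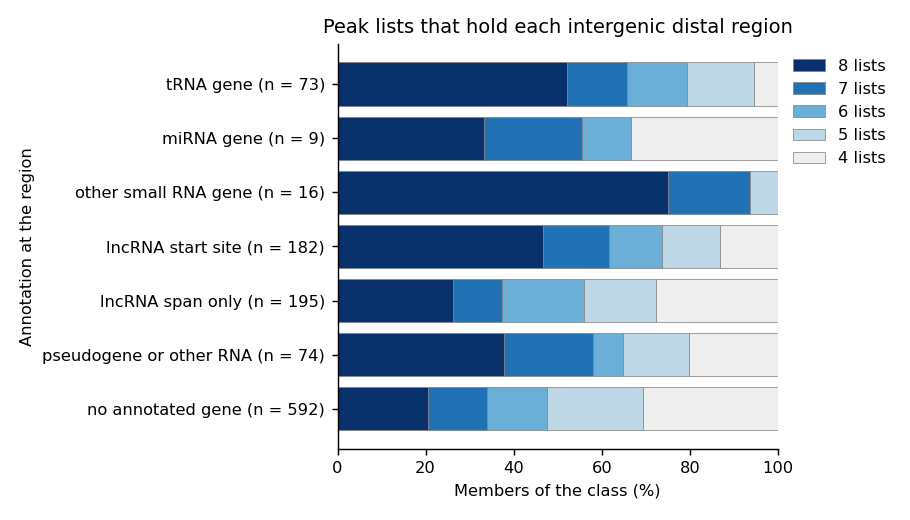
Share of intergenic distal regions (x axis, percent of the class) found in 4, 5, 6, 7 or 8 of the peak lists, for each annotation class (y axis, with its number of members). The darkest segment, a peak in all 8 lists, makes up 75% of members at other small RNA genes, 52.1% at tRNA genes and 20.6% where no gene is annotated.

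Peak length was not a criterion for members, but it can enter the classes. A longer merged region reaches a gene end more easily and lies wholly beyond 5 kb less easily. Within each library the median covered length of members was shorter than that of gene-end regions, between 1236 and 1712 bp against 1813 and 2488 bp. The ratio was 0.671 on average (log2 ratio -0.58 ± 0.05, SD, n = 8 libraries, lower in 8 of 8). An exact two-sided sign-flip permutation test over the libraries gave p = 0.00781, the smallest it can give. The libraries measured the same regions, so this p speaks only for agreement between libraries. Among members, those at tRNA genes were 1.24-fold as long as those with no annotated gene, those at lncRNA starts 1.19-fold, those at other small RNA genes 1.18-fold and those in lncRNA spans 1.1-fold. Members at pseudogenes and other RNA genes were shorter, at 0.863-fold. Each of these 5 differences had the same direction in 8 of 8 libraries, with an adjusted p of 0.00781 (exact sign-flip permutation test, Benjamini-Hochberg over 5 comparisons). These classes were compared after the positions of the members were known. A longer region is also more likely to overlap a gene, so length can enter these classes too. Here as well, the p-values speak only for agreement between libraries.

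**Figure D2:**
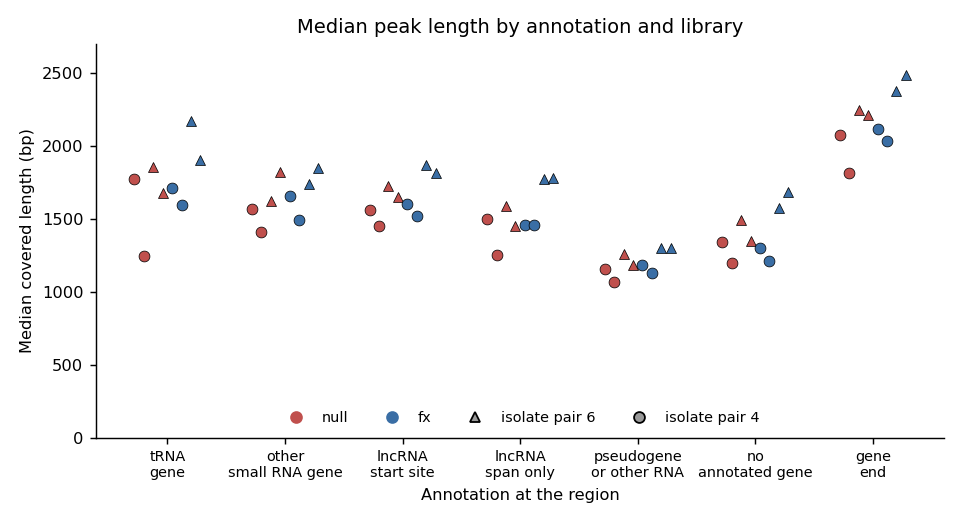
Median covered length in base pairs (y axis) of intergenic distal regions with a peak, by annotation class (x axis), with gene-end regions at the right for comparison; each point is 1 library, red for null and blue for fx, triangles for isolate pair 6 and circles for isolate pair 4. Every library lies between 1813 and 2488 bp at gene ends and between 1199 and 1687 bp where no gene is annotated.

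The 10 members with the longest mean covered length over the 8 libraries all overlapped a non-coding gene: 8 a lncRNA start, 1 a lncRNA span and 1 a tRNA gene. The longest lay at Malat1 (chr19:5796237-5808312), a nuclear lncRNA made in very large amounts in most cells. It covered 10009 and 10062 bp in null clone 4_C2, 11260 and 10966 bp in null clone 6_C4, 10167 and 10136 bp in fx clone 4_1 and 10170 and 12066 bp in fx clone 6_1. The genotypes overlapped, and no library fell below 10009 bp. Below, 4 null values stand for replicates 1 and 2 of clone 4_C2 and then of clone 6_C4, and 4 fx values for those of clone 4_1 and then of clone 6_1. Chaserr (chr7:73554979-73560334), a lncRNA that restrains its neighbour Chd2, a chromatin remodeller, covered 4666, 4081, 4787 and 4945 bp in the null libraries and 4847, 4843, 4983 and 5162 bp in the fx libraries. The region at the start of Dleu2 (chr14:61679956-61683869), the host transcript of Mir15a and Mir16-1, covered 3430, 3340, 3252 and 3859 bp in null and 3838, 3281, 3380 and 3380 bp in fx libraries. These values overlapped between genotypes, and on the log2 scale relative to each library's median they differed by 0.03 ± 0.08 (SE, null minus fx) at Chaserr and 0.14 ± 0.1 at Dleu2, with limma adjusted p of 0.946 and 0.776.

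tRNA genes gave the groups with the most members. Of the 73 members with a tRNA gene, 38 lay on chromosome 13 between 21158726 and 23520374, in the histone gene and zinc finger gene neighbourhood, and held 62 tRNA genes. The other 35 lay on 13 other chromosomes. Together the members held tRNA genes for all 20 amino acids, most often alanine (14 genes) and valine (12), and up to 5 in a single member. Chromosome 13 had 89 members, 14.8% of its regions in at least 4 lists, against 3.8% on chromosome 10. Joining members less than 10000 bp apart gave 23 groups of at least 3 members. The largest, chr13:21215423-21280054 between Trim27 and Gpx5, had 9 members, each with a tRNA gene, and the next, chr13:21896688-21938153 near Zfp184, had 7.

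In the 9 members of the largest group, summed covered length was 8511 and 4297 bp in null clone 4_C2 and 14911 and 12767 bp in null clone 6_C4, against 10770 and 5265 bp in fx clone 4_1 and 15553 and 16136 bp in fx clone 6_1. Both genotypes were longer in isolate pair 6. The widest member with a tRNA gene, at C230035I16Rik (chr13:23429645-23436393), covered 4967, 3617, 5208 and 5128 bp in null and 3126, 3491, 6666 and 5980 bp in fx libraries, so that null was longer in isolate pair 4 and shorter in isolate pair 6. Copies of a tRNA gene can be nearly identical, and the placing of reads that match several copies is not stated in the labels, so single tRNA regions are uncertain. The same holds for small nuclear RNA genes and pseudogenes.

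The genotype comparison asked whether null and fx differed over the members. Null libraries had a peak at 733 and 478 members (clone 4_C2) and 1069 and 1027 members (clone 6_C4), and fx libraries at 822 and 597 (clone 4_1) and 1097 and 1089 (clone 6_1). The means were 826.8 ± 276 in null and 901.2 ± 240 in fx libraries (SD, n = 4 each), a difference of -74.5, smaller than the SD of either genotype. Each SD takes in both isolate pairs, so the gap between pairs enters it. Presence chose the members, so the difference of -74.5 and those in shares below are given as a description, with no p-value. Leaving out replicate 2 of null clone 4_C2 turned the difference to 41.75. Within isolate pair 6 the means were 1048 in null and 1093 in fx, and within isolate pair 4 they were 605.5 in null and 709.5 in fx. Covered length over all members was 1.386 ± 0.566 Mb in null and 1.651 ± 0.645 Mb in fx. This sum also counts presence and is given without a test. Members with a peak had a median length of 1404 ± 130 bp in null libraries and 1514 ± 200 bp in fx libraries, a difference that did not pass an exact two-sided permutation test (p = 0.4, where the smallest possible p is 0.0286). In bulk embryoid bodies, fewer cells with an acetylated region and less acetylation per cell cannot be told apart.

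**Figure D3:**
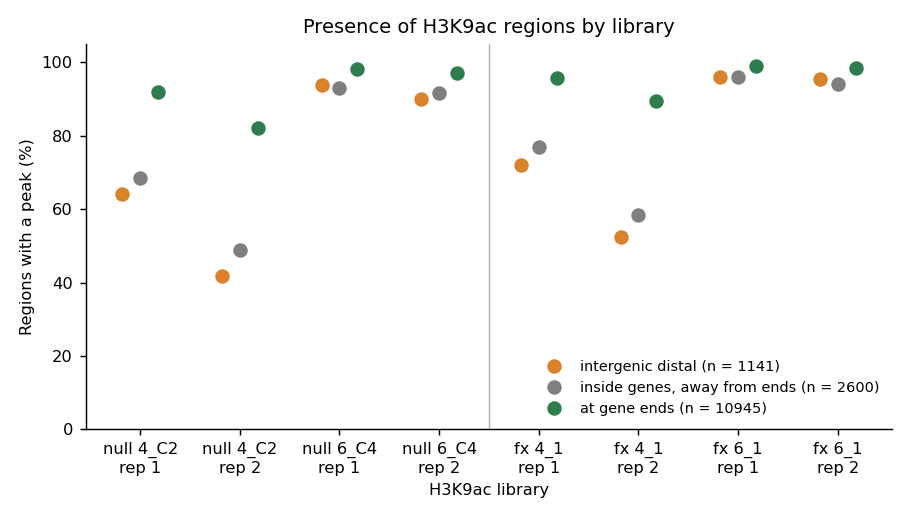
Percent of regions with a peak (y axis) in each H3K9ac library (x axis; null clones left of the line, fx clones right), for intergenic distal regions, regions inside genes and gene-end regions, all among autosomal regions in at least 4 lists. Intergenic distal regions range from 41.9% in replicate 2 of null clone 4_C2 to 96.1% in replicate 1 of fx clone 6_1, while gene-end regions stay between 82.2% and 99.1%.

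Members were less often called than gene-end regions in every library, and this gap was read as a difference of shares. It was -19.89 ± 17.1 points in null and -16.72 ± 16.8 points in fx libraries (SD, n = 4 each), a difference of -3.174 points between genotypes. Leaving out replicate 2 of null clone 4_C2 made this 3.645, and leaving out replicate 1 or 2 of fx clone 6_1 made it 1.426 or 1.421. Per 1000 peaks of its own list, a null library had 50.69 ± 8.24 members and an fx library 52.59 ± 5.74. By annotation class, members at tRNA genes had a peak in 84.9 ± 18.8% of cases in null and 88 ± 14.2% in fx libraries, and those at lncRNA starts in 80.6 ± 17.8% in null and 86.5 ± 13.7% in fx. Where no gene was annotated the shares were 67.8 ± 28.2% in null and 75.1 ± 24.4% in fx. At other small RNA genes they were 90.6 ± 8.07% in null and 100 ± 0% in fx, and 1 of the null libraries also had a peak at each of these 16 members.

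Length of single members was tested with limma over the 10171 regions present in all 8 lists, of which 339 were members, with isolate pair as a covariate. No member passed an adjusted p of 0.05, nor did any other region (0% called in either direction). At an unadjusted p under 0.05, 7 members were shorter in null (2.06%, where 3.22% of all tested regions were) and 17 were longer in null (5.01%, where 3.72% of all were). Without centring on each library's median, the split was 25 shorter (7.37%, where 12.7% of all tested regions were) and 0 longer (0%, where 0.187% were), so the balance of these counts turned with the scaling. The median log2 difference, null minus fx, was 0.04 over these members and 0.02 over all tested regions with centring, against -0.09 and -0.12 without it. The lowest adjusted p among members was 0.714. A fit with a genotype by isolate pair term called 0 members and 0 regions.

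The 5 members per direction with the lowest raw p in that fit are given by their values. Each had a limma adjusted p of 0.714, and each kept its direction without centring. Among those shorter in null, C130071C03Rik (chr13:83729275-83732006), the host lncRNA of Mir9-2, covered 1502, 1508, 1676 and 1685 bp in null and 1833, 1789, 2732 and 2670 bp in fx libraries, and the genotypes did not overlap (log2 -0.34 ± 0.11, SE). Snhg17 (chr2:158357966-158362267), a lncRNA that hosts small nucleolar RNAs, covered 2014, 1808, 3328 and 3157 bp in null and 2879, 2603, 4302 and 3898 bp in fx libraries. Every null value there was below both fx values of its own isolate pair, with a log2 difference of -0.29 ± 0.09. The member with tRNA gene n-TSgct5 near H2bc11 (chr13:22049487-22052157) covered 1185, 1075, 2046 and 1072 bp in null and 1966, 1876, 2671 and 1939 bp in fx libraries (log2 -0.56 ± 0.18). The lncRNA start at Gm35510 (chr4:119071209-119074016), nearest to the glucose transporter gene Slc2a1, covered 1702, 1278, 2175 and 2095 bp in null and 2017, 1986, 2687 and 2556 bp in fx libraries, with null below fx within each isolate pair (log2 -0.23 ± 0.08). The last of these 5, nearest to Rab12, is described with the isolate pairs.

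Among those longer in null, the lncRNA start at A930006K02Rik (chr16:91463778-91466397), nearest to the interferon receptor gene Ifnar1, covered 2260, 1964, 2070 and 2419 bp in null and 2061, 1776, 1984 and 1988 bp in fx libraries (log2 0.29 ± 0.09). That at Gm34820 (chr15:37134545-37136650), nearest to Grhl2, an epithelial transcription factor gene, covered 1664, 1338, 1837 and 1805 bp in null and 1239, 1338, 1800 and 1607 bp in fx libraries (log2 0.29 ± 0.09). The genotypes overlapped at both. They overlapped too at E030044B06Rik (chr19:40872331-40874215), which covered 1802, 1509, 1557 and 1595 bp in null and 1541, 1455, 1511 and 1562 bp in fx libraries (log2 0.22 ± 0.08). The start at Gm51701 (chr9:123923994-123926346) covered 2353, 1903, 1916 and 2312 bp in null and 1946, 1907, 1944 and 1957 bp in fx libraries, again with overlap (log2 0.26 ± 0.09). The fifth, nearest to Chit1 (chr1:134097788-134100440), which has no annotated gene, covered 2528, 2406, 2504 and 2451 bp in null and 2393, 991, 1993 and 2202 bp in fx libraries. The genotypes did not overlap there, with a log2 difference of 0.60 ± 0.22.

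Presence separated the genotypes fully at 4 members, which had a peak in 0 of 4 null and 4 of 4 fx libraries (0.351% of members, where 0.106% of all regions in at least 4 lists did so). No member had the reverse pattern, and 0% of all regions did. Of these 4, a pair lay at genes of the miR-124 family, the neuronal miRNA that is among the most abundant in brain. The member at Mir124a-1 (chr14:64589496-64591403) covered 0 bp in each null library and 1240, 1264, 1486 and 1908 bp in fx libraries. The member in Mir124-2hg (chr3:17793878-17795407), the host lncRNA of Mir124a-2, also covered 0 bp in each null library and 1126, 1248, 1202 and 1250 bp in fx libraries. The remaining pair had no annotated gene, one nearest to Irx2, a homeobox gene of early patterning (chr13:72639219-72640425), and one nearest to Stk25, a protein kinase (chr1:93667925-93669740). Near Irx2 each null library covered 0 bp and the fx libraries 1125, 921, 1127 and 1104 bp. Near Stk25 each null library covered 0 bp and the fx libraries 1061, 1042, 1683 and 1222 bp. Without replicate 1 of null clone 6_C4 the count with this pattern was 13, and without replicate 2 it was 9. Fewer null lists must then be empty. The share of all regions under these omissions is not given, so nothing particular to members is read from these counts.

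The other regions of the miR-124 genes were less separated. At Mir124a-3 (chr2:180890368-180895145) the null libraries covered 2188, 0, 3535 and 4147 bp and the fx libraries 4444, 3971, 4232 and 4636 bp. Replicate 2 of null clone 4_C2 had no peak, and the longest null value lay above the shortest fx value. A second member in the host transcript Mir124a-1hg (chr14:64586500-64588379) covered 0, 0, 1205 and 1261 bp in null and 1604, 0, 1583 and 1520 bp in fx libraries. It was thus present in both null libraries of isolate pair 6, unlike the neighbouring member at Mir124a-1. The fx lengths at the 4 separated members, 921 to 1908 bp, were mostly short: 14 of the 16 values lay below the median member length of their own library, which was 1301 to 1712 bp in fx. How close the null signal came to the calling threshold was not tested, since the lists hold no score.

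Within isolate pair 4, 59 members had a peak in neither null and both fx libraries (5.17%, where 2.8% of all regions did) and 18 the reverse (1.58%, where 0.632% did). Within isolate pair 6 the counts were 12 (1.05%, where 0.579% did) and 4 (0.351%, where 0.206% did). Over all libraries, 341 members had a peak in fewer null than fx lists (29.9%, where 17.1% of all regions did) and 138 in more null than fx lists (12.1%, where 5.2% did). Both shares were above those of all regions and near those of regions inside genes away from their ends, 27% with fewer and 9.81% with more null than fx lists. At gene ends the shares were 13.1% and 3.13%. A peak in 1 null and 4 fx libraries was found at 15 members (1.31%, where 0.499% of all regions had this pattern). Among them were those at the lncRNA 6530411M01Rik and nearest to Mycn, a Myc family transcription factor, Nr4a1, Jade2 and Sorl1, in each of which replicate 1 of null clone 6_C4 had the null peak. At the member nearest to 1700018B08Rik (chr8:121382381-121383993), also among them, replicate 2 of that clone had it.

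The opposite balance, 4 null and 1 fx library, was found at 3 members (0.263%, where 0.12% of all regions had it). The tRNA gene n-TFgaa6 on chromosome 19 (chr19:12001937-12003355) covered 1176, 945, 1022 and 1013 bp in null and 0, 0, 0 and 1258 bp in fx libraries. The member nearest to Socs3, an inhibitor of cytokine signalling (chr11:117948992-117950376), covered 1332, 1188, 1006 and 1022 bp in null and 1197, 0, 0 and 0 bp in fx libraries. The third (chr7:79535159-79536632) was nearest to Rhcg and within 1000 bp of the lncRNA Mir9-3hg. It covered 859, 1067, 1242 and 1354 bp in null and 1239, 0, 0 and 0 bp in fx libraries. No null library lacked these regions, and the fx library with a peak differed, replicate 2 of clone 6_1 at n-TFgaa6 and replicate 1 of clone 4_1 at the others.

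**Figure D4:**
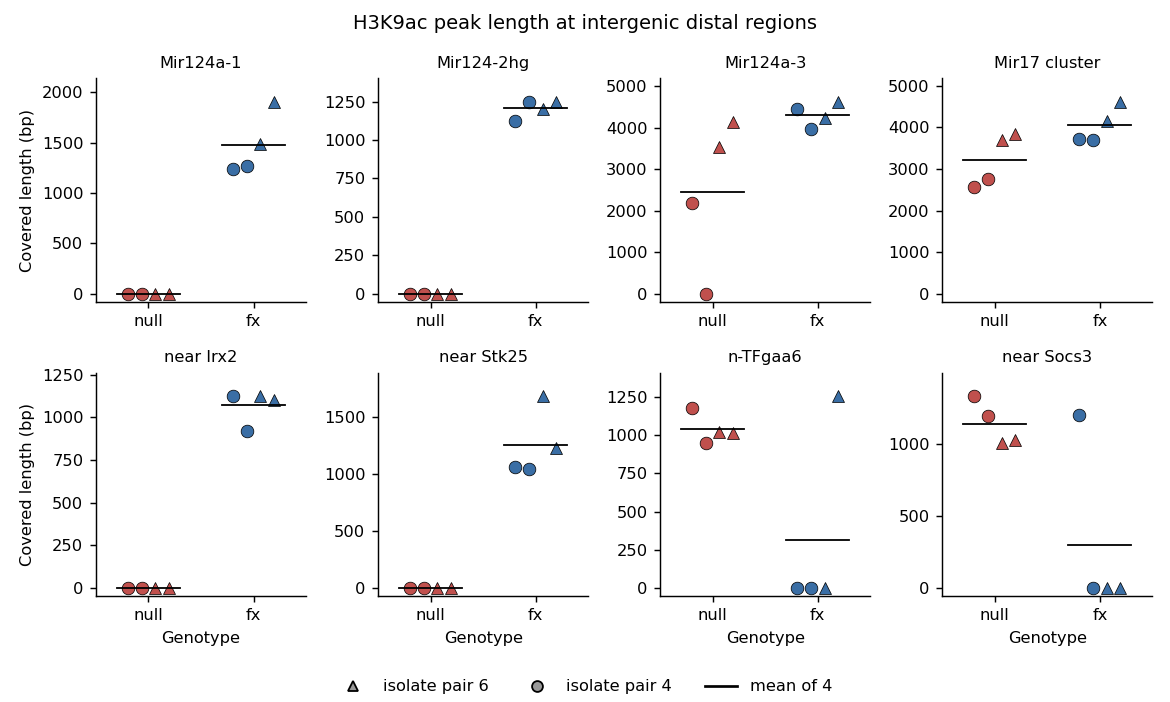
Covered length in base pairs (y axis) at 8 intergenic distal regions in null (left, red) and fx (right, blue) libraries; triangles are isolate pair 6, circles isolate pair 4, and the line is the mean of 4 libraries. Null libraries are at 0 at Mir124a-1, Mir124-2hg and the regions near Irx2 and Stk25, fx libraries lie between 921 and 1908 bp there, and n-TFgaa6 and the region near Socs3 have a single fx library with a peak.

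Members near the miRNA loci whose sequences are shown above ranged between 4 and 8 lists. The member at the Mir17 cluster (chr14:115039759-115044380), which makes miRNAs that promote proliferation, spans the hairpins of Mir17, Mir18, Mir19a and Mir20a, and ends 47 bp short of Mir92-1. It covered 2561, 2767, 3689 and 3837 bp in null and 3729, 3689, 4145 and 4622 bp in fx libraries. Both null values were below both fx values within each isolate pair, while the fitted difference of -0.21 ± 0.1 (log2, SE) had a limma adjusted p of 0.724. The member nearest to Zfp169 (chr13:48543486-48547492), 5214 bp from Mirlet7a-1 of the let-7 family, which rises as stem cells differentiate, covered 3370, 2365, 4007 and 3362 bp in null and 2789, 2865, 3113 and 3601 bp in fx libraries. These overlapped (log2 0.20 ± 0.1, limma adjusted p = 0.724).

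The Mir9 genes encode a miRNA of neural progenitors, and their members differed in presence. The host transcript member near Mir9-2, at C130071C03Rik above, was in all 8 lists. The member that holds Mir9-1 (chr3:88214300-88216397) covered 1245, 0, 1905 and 1291 bp in null and 1636, 0, 2012 and 2042 bp in fx libraries, so that replicate 2 of each pair 4 clone had no peak. An annotated start of Mir9-3hg (chr7:79514868-79516173), 9515 bp from Mir9-3, covered 0, 0, 1262 and 1306 bp in null and 0, 0, 1176 and 1208 bp in fx libraries, with peaks in isolate pair 6 alone. The member nearest to Rhcg described above, within 1000 bp of Mir9-3hg, had instead a peak in 4 null libraries and 1 fx library, across both isolate pairs.

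The Mir200 cluster encodes miRNAs that hold cells in an epithelial state. The lncRNA start at Gm13648 (chr4:156058428-156060492), 2678 bp from Mir200b, covered 1939, 1186, 1890 and 1442 bp in null and 0, 0, 1689 and 1742 bp in fx libraries, so the 2 libraries without a peak were those of fx clone 4_1. Mir182 (chr6:30165964-30168638), in the sensory miRNA cluster with Mir96 and Mir183, covered 0, 0, 1093 and 1812 bp in null and 0, 0, 1378 and 1835 bp in fx libraries, with peaks in isolate pair 6 alone. The member at chr6:30158839-30163615, 2303 bp from Mir182, also had peaks in isolate pair 6 alone. In contrast, the member at BB283400 (chr6:30171594-30177148), 1857 bp from Mir183, was in all 8 lists. It covered 4430, 4378, 5555 and 4587 bp in null and 4268, 4302, 4821 and 4884 bp in fx libraries. Mir193a (chr11:79709951-79712680) was present throughout, with 1910, 2306, 1932 and 1969 bp in null and 2454, 2014, 1826 and 2170 bp in fx libraries, and overlapped between genotypes.

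Members also differed between the isolate pairs. A peak in all 4 libraries of pair 6 and none of pair 4 was found at 174 members (15.2%, where 4.82% of all regions did so), against 2 members with the reverse. The share was similar among regions inside genes away from their ends, 12.7%, and among the remaining regions away from gene ends, 14.8%, while it was 1.55% at gene ends. Pair 6 libraries had a peak at 1070 ± 31.3 members and pair 4 libraries at 657.5 ± 151 (SD, n = 4 each). This is a description, since presence chose the members. The lists of pair 6 were also longer, and per 1000 peaks they held 56.41 ± 2.66 members against 46.86 ± 5.94 in pair 4. The depth of the libraries is unknown, so its part in the split was not tested. The split was seen at 19.9% of members with no annotated gene, 16.9% in lncRNA spans, 6.59% at lncRNA starts and 2.74% at tRNA genes.

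Some of the members with this pattern were long. The member at the pseudogene Gm41958, 38898 bp from Zfp281, a zinc finger factor of the pluripotency network (chr1:136669289-136678895), covered 8048 and 6452 bp in null and 8888 and 9420 bp in fx libraries of pair 6, and 0 bp in each pair 4 library. Its neighbour at Platr22 (chr1:136695002-136700479), one of the pluripotency-associated transcripts, covered 5155 and 4177 bp in null and 4781 and 4547 bp in fx libraries of pair 6. In pair 4 it covered 0 and 0 bp in null and 1959 and 0 bp in fx libraries. The genotypes overlapped within pair 6 at Platr22 and did not at Gm41958.

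Lncenc1 (chr13:97431996-97437247), a lncRNA of naive embryonic stem cells, covered 5070 and 2768 bp in null and 4446 and 4718 bp in fx libraries of pair 6, and 0 and 0 bp in null and 1442 and 0 bp in fx libraries of pair 4. Platr10 (chr3:75649686-75656126) covered 4990 and 3812 bp in null and 5188 and 6441 bp in fx libraries of pair 6, and 0 and 0 bp in null and 1341 and 1126 bp in fx libraries of pair 4. Each was longest in pair 6 in both genotypes. The member nearest to Tcf15 (chr2:152176142-152181158), which encodes a factor active in cells leaving the naive state, covered 3779 and 3663 bp in null and 3409 and 5017 bp in fx libraries of pair 6 and 0 bp in pair 4. The member nearest to Fzd7, a Wnt receptor (chr1:59447121-59451673), covered 2393 and 2384 bp in null and 3648 and 4323 bp in fx libraries of pair 6 and 0 bp in pair 4. At Fzd7 both null values of pair 6 lay below both fx values.

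Other long members were present in both pairs but far longer in pair 6. The member nearest to Rab12 (chr17:66478005-66486711) covered 6835 and 5388 bp in null and 8614 and 7616 bp in fx libraries of pair 6, and 1597 and 1064 bp in null and 2730 and 1777 bp in fx libraries of pair 4. Null was shorter than fx in each pair, with a log2 difference of -0.45 ± 0.15 that did not pass (limma adjusted p = 0.714). The member nearest to Loxl1, a collagen crosslinking enzyme (chr9:58271810-58280980), covered 6330 and 5957 bp in null and 6689 and 9033 bp in fx libraries of pair 6, and 1256 and 0 bp in null and 1911 and 1693 bp in fx libraries of pair 4. Malat1 and Chaserr, by contrast, averaged 11116 ± 783 and 4969 ± 154 bp in pair 6 and 10094 ± 72 and 4609 ± 362 bp in pair 4 (SD, n = 4 each).

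**Figure D5:**
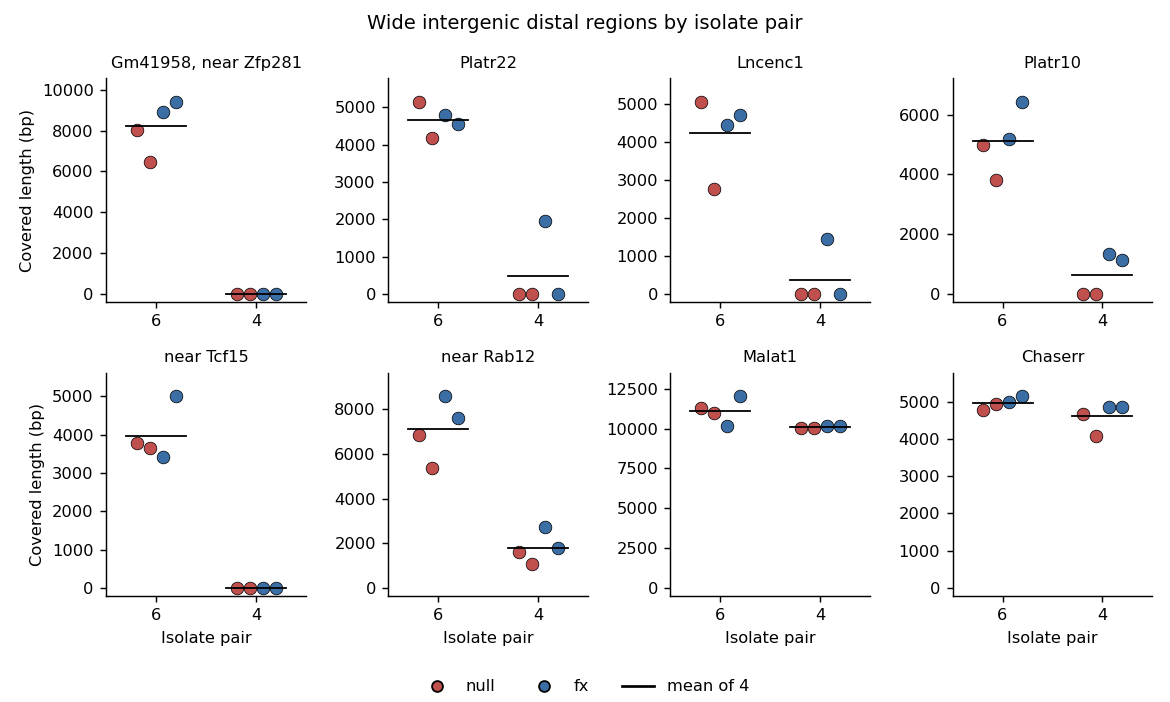
Covered length in base pairs (y axis) at 8 intergenic distal regions in isolate pair 6 (left) and isolate pair 4 (right); red points are null, blue points fx, and the line is the mean of 4 libraries. The regions at Gm41958 and near Tcf15 are at 0 bp in every pair 4 library, while Malat1 lies between 10009 and 12066 bp in both pairs.

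Members in overlapping transcripts of neural genes were present in 4 to 8 lists. Sox1ot overlaps Sox1, a gene of neural progenitors. Its start (chr8:12384309-12386804) covered 0, 0, 2145 and 1265 bp in null and 2390, 1620, 2380 and 2238 bp in fx libraries, so that the 2 libraries of null clone 4_C2 had no peak. A second member farther along Sox1ot (chr8:12429412-12432145) covered 1382, 1070, 1987 and 2216 bp in null and 1932, 1674, 1949 and 2734 bp in fx libraries, with overlap. In Sox2ot, which spans the gene of the pluripotency and neural factor Sox2, the member chr3:34662562-34666053 covered 1298, 1139, 2154 and 1113 bp in null and 2145, 1022, 2766 and 3492 bp in fx libraries (log2 -0.51 ± 0.26, limma adjusted p = 0.724). Another Sox2ot member, chr3:34641643-34642994, had peaks in isolate pair 6 alone, with 0, 0, 1300 and 1056 bp in null and 0, 0, 1135 and 1282 bp in fx libraries. Among 147 listed non-coding genes, 132 were in the gene table and 35 had a member at them or within 1000 bp. Of 15089 non-coding genes more than 5 kb from protein-coding genes, 544 (3.61%) lay in a member, counted without that margin. The sets and margins differ, so nothing particular to the listed genes is read from the count of 35.

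The protein-coding genes nearest to members were read through 10 gene lists. Of 33 pluripotency factors, 8 were nearest to a member, with 13 members in all. Of these members 2 were in all 8 lists, 0 had more null than fx lists, 6 had fewer null than fx lists and 4 were in pair 6 alone. The 39 neuroectoderm genes had 8 nearest to 12 members, 2 with more null than fx lists and 7 with fewer. The 42 genes of Wnt, Nodal and BMP signalling had 10 nearest to 16 members, 5 with more null than fx lists and 3 with fewer. Over all members 12.1% had more null than fx lists and 29.9% fewer, 29.7% were in all 8 lists and 15.2% in pair 6 alone. Nothing particular to a list is read from these counts.

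The other lists had fewer members nearby. Epiblast genes had 7 members (6 of 21 genes), primitive streak and mesoderm genes 6 (6 of 32), and FGF ligands, receptors and feedback genes 6 (4 of 40). The Myc network had 3 members (3 of 27 genes), including one in the lncRNA Pvt1 beside Myc. Endoderm genes had 1 (Sox17, of 24), the fibroblast list 1 (Loxl1, of 14) and Gcn5 complex subunits 1 (Tada2b, an adaptor that joins Gcn5 to its complex, of 26). The gene nearest to a member need not be the gene it acts on. The protein-coding genes nearest to the most members were Zfp184 (7 members), 1700001O22Rik and Gpx5 (6 each), and Abt1 and Pim1 (5 each).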

How the data were processed

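The 8 H3K9ac libraries were analysed; 16 samples of total H3 or input were not. Per library, the authors deposited the chromosome, start and end of each peak, positions in base pairs with no score. Bowtie 1.1.2, MACS 1.4.2 and mm10 come per the submitters' processing notes; the calling threshold was, like control and filters, not given in the sources used here. Depth is unknown, so no counting interval is given. Genes came from RefSeq GRCm38.p6. Covered length is the base pairs of a region under a library's peaks. Median lengths were compared by exact two-sided permutation of genotype (70 arrangements); presence chose the members, so planned tests of presence and of summed length are not reported. Lengths of single regions were tested with limma 3.58.1 (R 4.3.3) on log2 covered length centred on each library's median, with Benjamini-Hochberg adjustment over all regions tested. The limma fit was tried on simulated lengths with the same spread in every region and no difference between isolate pairs. That check does not cover the pair differences of these data. Python 3.11.15, numpy 2.4.6, pandas 2.3.3 and matplotlib 3.10.9 were used. No label names separate cultures, so p-values measure the spread between these libraries, which may be technical. Regions were named by length, by genotype difference in presence, by limma p, by listed non-coding genes, by gene list (up to 4 each), by distance and by the most frequent nearest genes; those at miRNA hairpins and in the largest groups were named after their values were seen. Members, lists and classes were chosen with earlier results of these data known.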

Additional observations from a re-analysis of the deposited data

Results flagged for a closer look

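In 100 groups of 4 libraries, the gap between the most extreme library and the next, as a share of the group's range, was checked at a level that chance passes in about 1 of 20 groups. It was passed by 10. At n-TFgaa6, near Rhcg and near Socs3 the share was 1 in fx libraries, because a single fx library had a peak. At Malat1 it was 0.982 in fx libraries, where replicate 2 of clone 6_1 covered 12066 bp, and at Mir124a-1hg 0.948 in fx libraries, where replicate 2 of clone 4_1 had no peak. Near Irx2 it was 0.888 in fx libraries through the 921 bp of replicate 2 of clone 4_1. At n-TSgct5 it was 0.884 in null libraries, through 2046 bp in replicate 1 of clone 6_C4, and 0.887 in fx libraries, through 2671 bp in replicate 1 of clone 6_1. At Mir193a it was 0.851 in null libraries, through 2306 bp in replicate 2 of clone 4_C2, and at C230035I16Rik 0.849, through 3617 bp in the same library. What lies behind these values was not tested.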

How the results depend on the processing

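The lists hold no scores or depths, and membership needs a peak in 4 lists, so a short list limits what can be seen. Leaving out 1 library at a time, the difference between null and fx in members with a peak ran between -175.9 and 41.75, in covered length between -0.51 and -0.03319 Mb, in median length between -181.6 and -44.62 bp and in the distal minus gene-end share between -10.01 and 3.645 points; median length, the only one of these with a reported test, did not pass in any. The positive values came without replicate 2 of null clone 4_C2 (41.75 members, 3.645 points) and without replicate 1 or 2 of fx clone 6_1 (1.426 and 1.421 points). The log2 ratio of distal to gene-end length stayed between -0.58 and -0.57. Members with a peak in no null and every fx library numbered between 4 and 13, and those with the reverse between 0 and 2, with 2 without replicate 1 of fx clone 4_1 and 1 without replicate 2 of fx clone 6_1. The share of all regions under these omissions is not given. limma called 0 members in every setting except the fit that took in all regions of 4 or more lists and added 100 bp to each length, which called 4 of 1141 members (17 of 15383 regions). These 4 had a peak in fx libraries alone, so they had to differ there. Same-numbered replicates share only a number, with correlations of their deviations of 0.109 in isolate pair 4 and 0.0624 in isolate pair 6. With the replicate number as a block, the differences were the same (-74.5 members, -0.2649 Mb, -110.5 bp and -3.174 points). Null lay below fx in 4 of 4 same-numbered pairs of libraries in members with a peak, covered length and share, and in 3 of 4 in median length (exact sign flips p = 0.25). The smallest p these flips allow is 0.125, so they could not pass. limma called 0 members with this block. The remaining settings kept the direction of the 5 comparisons above. The 2 with a reported test stayed on the same side of the threshold. For median length, permutation within isolate pairs could not do otherwise, since its smallest possible p is 0.0556. Direction and side of the threshold also held for the lengths of 10 named members.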
